A study of Homo sapiens and Pan troglodytes with 11 samples.

Results

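AKAP6 and ARHGAP5 are the pair of genes that lie upstream of NPAS3 on human chromosome 14. Both gene columns were taken from every count matrix of the series, which makes 2 of the 24 genes measured and 2 of the 7 genes present on both of its gene panels. UMIs (unique molecular identifiers, 1 per captured probe molecule) were read in single excitatory neurons by HyPR-seq, which counts RNA through ligated probes, 2 weeks after differentiation. The human group was 6 libraries of the stem cell line WTC11 and the chimpanzee group 5 libraries of the stem cell line C3649. Each species is thus 1 line, so line and species cannot be told apart, and p-values over libraries measure only the spread between libraries. All libraries of both species carried CRISPR interference, in which a catalytically dead Cas9 fused to a repressor lowers the activity of the site its guide RNA binds, and a pool of guides marked by 28 guide barcodes. There was no library without guides. Human 1 to 3 and chimpanzee 1 and 2 belonged to screen replicate 1, and human 4 to 6 and chimpanzee 3 to 5 to screen replicate 2. Human 4 and 5 and chimpanzee 3 and 4 were read with a panel of 21 genes (panel 2) and the other 7 libraries with a panel of 10 genes (panel 1).

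AKAP6 encodes a large scaffold protein, also called mAKAP, that anchors protein kinase A at the nuclear envelope and holds phosphodiesterase, calcineurin and MAP kinase signalling enzymes beside it. It is known from heart and skeletal muscle and from neurons, where it takes part in survival and axon growth. ARHGAP5 encodes p190-B, a GTPase-activating protein, which switches off small GTPases by speeding their hydrolysis of GTP, and so acts on the actin cytoskeleton, on cell movement and on neurite growth. NPAS3 encodes a transcription factor of the developing brain whose locus is known for its many human accelerated regions, stretches of conserved DNA that changed fast on the human lineage.

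On GRCh38 (release GRCh38.p14 of the RefSeq tables), ARHGAP5 spans chr14:32077304-32159728 and AKAP6 chr14:32329298-32837684, both on the plus strand and both protein-coding. ARHGAP5 is 82.4 kb long and AKAP6 508.4 kb. Between them lie 169.6 kb, and AKAP6 ends 97.1 kb before NPAS3 starts. GENCODE release 29 lists 11 transcripts of ARHGAP5 and 15 of AKAP6. The windows from 250 bases before to 50 bases after the RefSeq start differ between the neighbours. The AKAP6 window holds 2 CpG dinucleotides and is 41.3% G or C, and 10.97% of the 35116 windows of that length in RefSeq have fewer CpGs. The ARHGAP5 window holds 35 CpGs and is 74.3% G or C, and 85.9% of windows have fewer. Stretches of both are shown, with capitals, because each holds a motif that the other window lacks.
AKAP6, chr14:32329048-32329272, plus strand: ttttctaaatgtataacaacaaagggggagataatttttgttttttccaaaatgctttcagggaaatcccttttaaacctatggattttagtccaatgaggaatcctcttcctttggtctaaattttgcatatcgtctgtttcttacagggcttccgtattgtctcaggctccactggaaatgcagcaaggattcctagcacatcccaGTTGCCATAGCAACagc
ARHGAP5, chr14:32077244-32077273, plus strand: tgtgtgtcggggaGGGCGGggggaggtggc
The capitals of AKAP6 mark GTTGCCATAGCAAC, a match to the palindromic form of the X-box that RFX transcription factors bind, searched with any base at the ninth position. It begins 42 bases before the RefSeq start. Of the 35116 windows, searched on both strands, 17 hold that motif (0.0484%). The capitals of ARHGAP5 mark the GC box GGGCGG, which 45.0% of windows hold. Searches for CCAAT (34.6% of windows), TATAAA (11.5%) and TGACG (24.6%) found 1 CCAAT in the AKAP6 window, 1 TGACG in the ARHGAP5 window, and no TATAAA in either. A match is a description of these letters and not evidence of binding.

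The 11 libraries held 41950 cells and 10647638 gene UMIs, of which 963504 were AKAP6 and 378803 ARHGAP5. The median cell of a library had between 28 and 272 UMIs of the 7 shared genes. Human 4 stood apart, with 32.0% of its cells under 20 such UMIs against 0% to 2.42% elsewhere, and with GAPDH at 67.9% of its UMIs against 45.2% to 52.6% in the other panel 2 libraries. Cell barcodes were also shared between libraries of screen replicate 2. Human 4 and human 5 had 1060 barcodes in common, human 4 and chimpanzee 3 had 1003, human 5 and chimpanzee 3 had 995, chimpanzee 4 and chimpanzee 5 had 1436, human 6 and chimpanzee 5 had 400, and human 6 and chimpanzee 4 had 234. Random sequences of that length would give 1.05 to 2.48 for those pairs, and no other pair shared more than 27. The commonest guide barcode was the same on both sides for 23.4% to 41.99% of the shared barcodes, against 4.38% to 9.37% from guide frequencies. In the barcodes common to human 5 and chimpanzee 3, AKAP6 made up 24.9% and 11.1% of the shared-gene UMIs on either side. The other cells of those libraries had 26.2% and 10.3%. The gap was wider in chimpanzee 5, with 19.7% in barcodes shared with chimpanzee 4 against 17.7%. It was also wider in human 4, in the other direction, with 23.2% in barcodes shared with human 5 against 25.7%. ARHGAP5 was higher in the common barcodes on both sides of every pair named above. In human 5 it made up 14.8% of those shared with chimpanzee 3, against 12.9%. In human 6 and chimpanzee 5, 3 and 6 cells could be assigned to a single guide, against 211 to 1022 in each other library. Results are therefore given also for barcodes found in 1 library only, and without human 6 and chimpanzee 5. Of 5 neuronal marker genes, NPAS3 and TENM3 were on both panels, and NRSN2, SCRT2 and ONECUT2 on panel 2. All 5 were detected, together at 9.42% and 16.2% of gene UMIs in human 4 and 5 and 19.0% and 19.9% in chimpanzee 3 and 4. The markers did not go in 1 direction. In those libraries, in the same order, NPAS3 made up 2.55%, 4.28%, 7.85% and 7.12%, and TENM3 3.15%, 5.23%, 7.63% and 8.73%. ONECUT2 went the other way, at 1.54% and 3.05% in human against 0.910% and 1.07% in chimpanzee libraries. NRSN2 and SCRT2 overlapped between the species. DAZL, a germ cell gene, made up 0.108% to 0.253%.

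How much of the UMIs the neighbours took in neurons of each species was asked first. AKAP6 and ARHGAP5 both took a larger share in human than in chimpanzee libraries, with no overlap between the groups. Such a separation was not particular to the pair. Among the 7 shared genes, NPAS3 and TENM3 also did not overlap, in the other direction. NPAS3 reached at most 12.8% in human 3 and at least 15.4% in chimpanzee 2, and TENM3 14.4% and 20.4% in the same libraries. BAZ1A, DCTD and PSMA6 overlapped. AKAP6 made up 33.9%, 33.0%, 33.2%, 25.3%, 26.02% and 30.1% of the UMIs of the 7 shared genes in human 1 to 6. In chimpanzee 1 to 5 it made up 20.2%, 23.3%, 10.4%, 10.3% and 18.2%. Within each species the panel 2 libraries were the lowest, and the human panel 2 libraries lay close above the highest chimpanzee one. ARHGAP5 made up 10.1%, 10.3%, 9.40%, 12.3%, 13.2% and 10.7% in human 1 to 6 and 6.19%, 6.42%, 8.83%, 8.39% and 6.22% in chimpanzee 1 to 5. Here the panel 2 libraries were the highest of each species, and human 3 lay close above chimpanzee 3.

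Relative to the 7 shared genes, the log2 ratio of human to chimpanzee was 0.98 ± 0.25 (SE) for AKAP6 (adjusted p = 0.00364) and 0.72 ± 0.10 for ARHGAP5 (adjusted p = 5.11e-05), by edgeR's quasi-likelihood test with adjustment over all 24 genes. By the same test 37.5% of the 24 genes were called higher in human, and the 2 of 2 called here are to be read against that share. The share of 1 gene depends on the others, since an abundant gene that takes more leaves less. With ARHGAP5 left out of the fit AKAP6 stood at 1.17, and with AKAP6 left out ARHGAP5 stood at 0.90. Against all 21 genes of panel 2, where GAPDH holds much of the total, ARHGAP5 had a log2 ratio of 0.23 (adjusted p = 0.291 by edgeR), which ends its call in that panel, while AKAP6 had 0.97. Against all 10 genes of panel 1 AKAP6 had 0.51, the lowest of its alternatives, and ARHGAP5 0.52, both still called. Barcodes found in 1 library only gave 0.99 and 0.72, and the 9 libraries without human 6 and chimpanzee 5 gave 1.01 and 0.68.

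**Figure D1:**
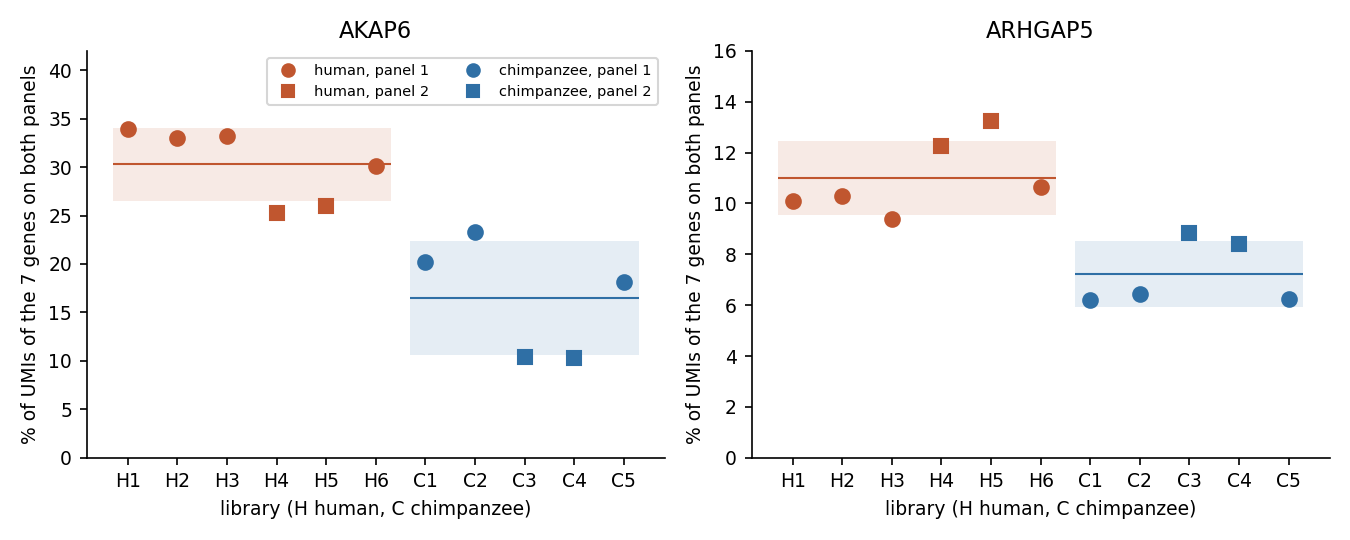
Percent of the UMIs of the 7 genes on both panels that were AKAP6 (left) and ARHGAP5 (right), by library. Lines are group means and bands 1 SD over 6 human and 5 chimpanzee libraries; squares are panel 2. Human libraries lie above chimpanzee libraries for both genes, and panel 2 libraries are the lowest of their species for AKAP6 and the highest for ARHGAP5.

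Plain counts per cell, which move with the depth of a library, overlapped between the species. AKAP6 averaged 56.8, 49.7, 47.3, 12.9, 18.0 and 22.3 UMIs per cell in human 1 to 6 and 62.9, 30.0, 10.4, 8.68 and 13.9 in chimpanzee 1 to 5. ARHGAP5 averaged 16.9, 15.5, 13.4, 6.26, 9.13 and 7.87 in human and 19.2, 8.27, 8.85, 7.09 and 4.75 in chimpanzee libraries. Chimpanzee 1, the library with most UMIs per cell, was the highest of all for both genes. The log2 differences of 0.66 (AKAP6) and 0.32 (ARHGAP5) gave p = 0.310 and p = 0.418 by a two-sided exact permutation test over 462 splits, both 0.477 after adjustment over 8 such tests.

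The 5 genes of the chromosome 14 stretch, which includes BAZ1A (a subunit of chromatin remodelling complexes) and PSMA6 (a proteasome subunit), did not differ between species in 1 direction. ARHGAP5, AKAP6 and PSMA6 were called higher in human (3 of 5) and NPAS3 and BAZ1A lower (2 of 5), against 37.5% and 20.8% of all 24 genes. NPAS3, the neighbour downstream of AKAP6, had a log2 ratio of -0.60 ± 0.09. PSMA6 had 0.51 ± 0.12 and BAZ1A -0.59 ± 0.18.

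The ratio of one neighbour to the other in the same cells needs no library size. Panel 1 libraries of both species had nearly the same ratio, and panel 2 libraries had lower ones that differed between the species. There were 3.36, 3.22, 3.54 and 2.83 AKAP6 UMIs per ARHGAP5 UMI in the panel 1 libraries human 1, 2, 3 and 6, and 3.27, 3.63 and 2.92 in chimpanzee 1, 2 and 5. In panel 2 there were 2.06 and 1.97 in human 4 and 5 and 1.18 and 1.22 in chimpanzee 3 and 4. The groups overlap in panel 1, where the log2 difference of human minus chimpanzee was -0.02 (exact p = 0.857 over 35 splits), and do not overlap in panel 2, where it was 0.75. With 2 libraries against 2 the exact test cannot go below 0.333, the value it gave. Over all 11 libraries the difference was 0.33 (exact p = 0.383), and the difference between panels in that difference was 0.76 (p = 0.143 by permuting species labels within panels, 210 splits).

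Both genes also differed between the panels. A UMI count depends on the probes made for a gene, so the ratio is not one of transcript numbers. Relative to the 7 shared genes, panel 2 gave less AKAP6 than panel 1 in human libraries (log2 -0.38 ± 0.09, adjusted p = 0.000876 by edgeR) and in chimpanzee libraries (-1.12 ± 0.12, adjusted p = 0.000453). It gave more ARHGAP5 in both (0.30 ± 0.09, adjusted p = 0.00454, and 0.32 ± 0.08, adjusted p = 0.0216). Of the 7 genes, 42.9% differed between panels in human and 28.6% in chimpanzee libraries by that test. Panel and screen replicate are only partly separate, since human 6 and chimpanzee 5 had panel 1 within screen replicate 2. Their AKAP6 shares of 30.1% and 18.2% lay above those of the panel 2 libraries of that replicate in both species. They also lay below those of the panel 1 libraries of screen replicate 1 (33.0% to 33.9% in human, 20.2% and 23.3% in chimpanzee). Almost no cell of human 6 and chimpanzee 5 could be assigned to a guide. The part of screen replicate in these panel differences was not tested.

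The species ratio of AKAP6 was 0.77 on the log2 scale in panel 1 and 1.35 in panel 2, and that of ARHGAP5 0.80 and 0.61, relative to the 7 genes. For AKAP6 the interaction of species and panel was 0.63 ± 0.16 (adjusted p = 0.0130 over the 7 genes, of which 28.6% were called, by edgeR). With the size factors of DESeq2's method it fell to 0.29 with an adjusted p of 0.127, and it lost its call without human 5 (adjusted p = 0.0653), chimpanzee 3 (0.0602) or chimpanzee 4 (0.0608). For ARHGAP5 it was -0.14 (adjusted p = 0.403) by edgeR and -0.48 (adjusted p = 0.00282) with those size factors. The gene whose species ratio differed between panels thus changed with the scaling, which the ratio of the pair does not use. This comparison was added after the shares by library were seen.

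**Figure D2:**
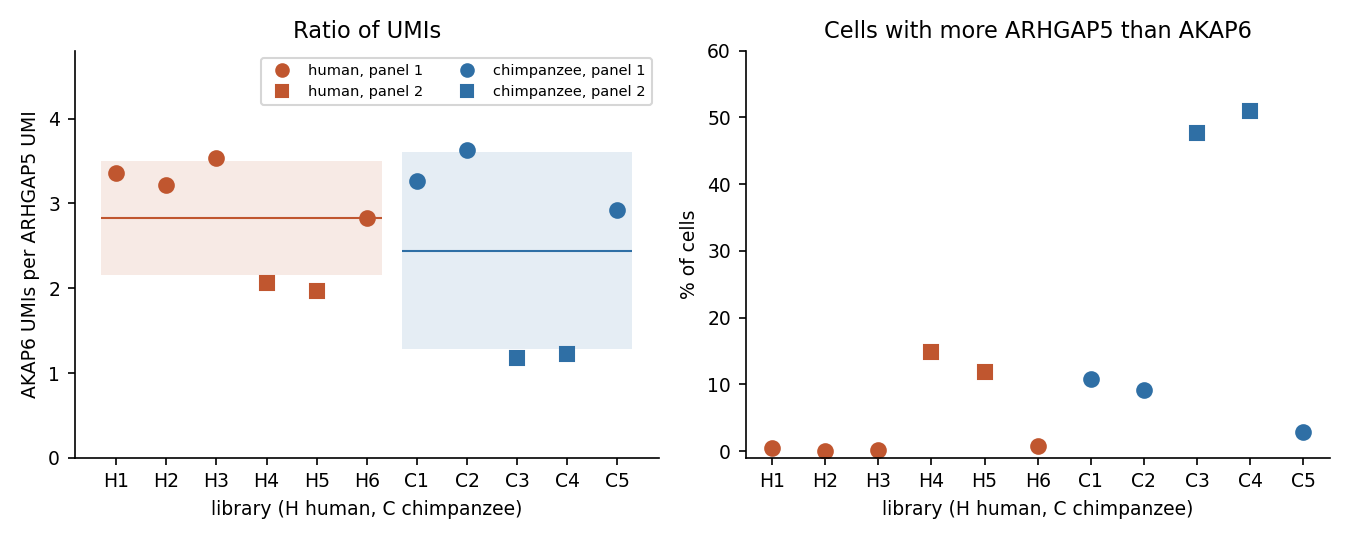
AKAP6 UMIs per ARHGAP5 UMI by library (left; lines are group means, bands 1 SD, n = 6 and 5) and the percent of cells with more ARHGAP5 than AKAP6 UMIs (right). Panel 1 libraries (circles) lie between 2.83 and 3.63 in both species, and the panel 2 libraries (squares) of chimpanzee are the lowest, at 1.18 and 1.22.

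Seen cell by cell, the order of the pair turned over in many chimpanzee cells. ARHGAP5 had more UMIs than AKAP6 in 0.513%, 0.0834%, 0.234% and 0.846% of cells in human 1, 2, 3 and 6, and in 14.9% and 11.8% in human 4 and 5. In chimpanzee libraries it did so in 10.8%, 9.17% and 2.83% of the cells of the panel 1 libraries 1, 2 and 5, and in 47.7% and 51.0% in chimpanzee 3 and 4. Within panel 1 the chimpanzee libraries lay at 2.83% to 10.8% and the human libraries at 0.0834% to 0.846%. Over both panels the species overlapped, since human 4 and 5 lay above chimpanzee 1, 2 and 5. These percentages also move with depth, which was 28 to 82 median UMIs of the shared genes in panel 2 and 62 to 272 in panel 1.

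Both genes were detected in nearly every cell at full depth. Cells with at least 1 UMI made up 96.0% to 100% for AKAP6 and 94.5% to 100% for ARHGAP5 across libraries. For background, DAZL had a UMI in 24.8% to 34.0% of the cells of panel 2 libraries. To compare libraries of unequal depth, detection was computed for 20 UMIs of the shared genes per cell, which left out 1395 cells, 1337 human and 58 chimpanzee, with 1224 of them in human 4. At that depth AKAP6 would be seen in 99.9%, 99.9%, 99.9%, 98.8%, 99.1% and 99.9% of cells in human 1 to 6 and in 92.3%, 95.1%, 79.3%, 75.3% and 97.7% in chimpanzee 1 to 5. No human library lay below any chimpanzee library, and the chimpanzee values were spread widely. The means were 99.6% ± 0.500 (SD, n = 6) and 87.9% ± 9.98 (n = 5), with exact permutation p = 0.00216, the smallest that 462 splits allow, and 0.00866 after adjustment over 8 tests.

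ARHGAP5 at 20 UMIs would be seen in 86.1%, 87.2%, 84.5%, 91.6%, 93.1% and 89.5% of cells in human 1 to 6. In chimpanzee 1 to 5 it would be seen in 71.7%, 72.2%, 83.4%, 81.4% and 72.8%. The groups do not overlap, and the panel 2 libraries are the highest of each species. The means were 88.7% ± 3.33 (SD, n = 6) and 76.3% ± 5.62 (n = 5), with the same exact permutation p of 0.00216 and adjusted p of 0.00866. For ARHGAP5 too this largely restates the shares and adds no separate support. Within panel 1 the differences were 4.88 percentage points for AKAP6 and 14.6 for ARHGAP5 (exact p = 0.0286 for each, the smallest that 35 splits allow), and within panel 2 they were 21.6 and 9.98 points (exact p = 0.333, the smallest possible).

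AKAP6 shares varied more between the cells of 1 library in most chimpanzee than in human libraries, and no such difference was detected for ARHGAP5. Spread is given as the squared coefficient of variation of a cell's share beyond counting noise, so that 0 means cells no more unlike than sampling makes them. For AKAP6 it was 0.0199, 0.0144, 0.0188, 0.0866, 0.0776 and 0.0118 in human 1 to 6. It was 0.270, 0.186, 0.461, 0.672 and 0.0321 in chimpanzee 1 to 5. Every chimpanzee library but chimpanzee 5 lay above every human library, and chimpanzee 5 and human 6, the libraries in which almost no cell could be assigned to a guide, were the lowest of their species. The means were 0.0382 ± 0.0343 (SD, n = 6) and 0.324 ± 0.249 (n = 5), with exact permutation p = 0.00649 and 0.0173 after adjustment over 8 tests.

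Without human 6 and chimpanzee 5 the difference in AKAP6 spread was -0.354 (exact p = 0.00794 over 126 splits), and within panel 1 it was -0.146 (exact p = 0.0286). Weighting cells by pairs of UMIs gave -0.215 (p = 0.158), and the share of all gene UMIs of the panel gave -0.228 (p = 0.145), both by the same exact permutation test and both ending the call. As an SD of the share, the spread of AKAP6 came to 3.26 to 7.25 percentage points in human libraries and to 3.32 to 10.4 in chimpanzee libraries (7.08 and 8.27 in chimpanzee 3 and 4, where the mean share was low). ARHGAP5 had no such contrast. Its spread ran from 0.0102 to 0.0752 in human and from 0.0302 to 0.0735 in chimpanzee libraries (exact permutation p = 0.619).

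The share of AKAP6 within single cells is given next by percentiles. In cells with at least 100 UMIs of the shared genes, the tenth percentile of a cell's AKAP6 share was 26.4%, 26.6%, 25.8% and 21.3% in human 1, 2, 3 and 6 and 6.07%, 7.31% and 11.4% in chimpanzee 1, 2 and 5. The ninetieth percentile was 41.4%, 39.7%, 40.4% and 37.0% in those human libraries and 34.4%, 36.8% and 23.7% in the chimpanzee ones, whose medians were 19.4%, 23.2% and 17.1%. The cells of chimpanzee 1 and 2 richest in AKAP6 thus reached shares above the human medians of 30.3% to 33.9%, while the tenth percentile lay under that of every human library. In panel 2 the tenth percentile, median and ninetieth percentile were 14.9%, 26.4% and 38.2% in human 4, 15.05%, 24.04% and 37.6% in human 5, 3.05%, 8.19% and 20.8% in chimpanzee 3, and 2.51%, 7.33% and 25.0% in chimpanzee 4. Chimpanzee 3 and 4 thus had low medians and a longer range above than below them, and in percentage points the range of human 4 and 5 was as wide. An AKAP6 share under 10% was found in 0% to 2.37% of such cells in human libraries, and in 18.8%, 14.03%, 60.5%, 62.7% and 5.57% in chimpanzee 1 to 5. These percentiles include counting noise and cover 590 to 2728 cells per library. They were not tested.

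**Figure D3:**
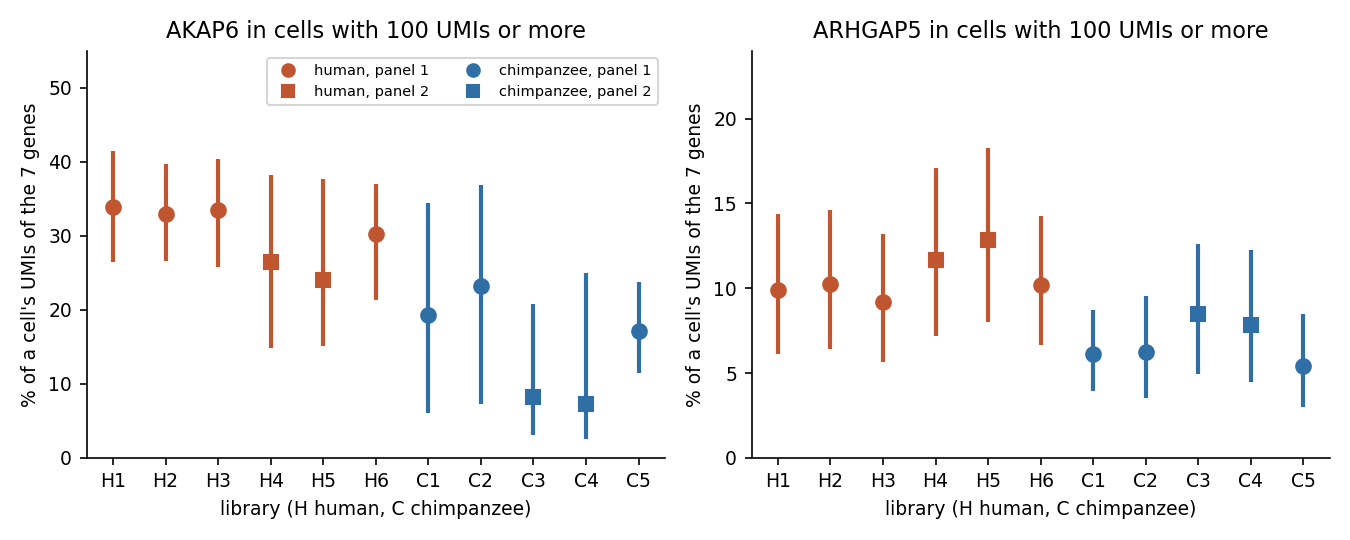
Share of AKAP6 (left) and ARHGAP5 (right) among a cell's UMIs of the 7 shared genes, in cells with at least 100 such UMIs. Points are medians over cells and bars run from the tenth to the ninetieth percentile; squares are panel 2. The AKAP6 bars of chimpanzee 1 to 4 reach down to 2.51% to 7.31% and those of human 4 and 5, as long or longer than in chimpanzee 3 and 4, to 14.9% and 15.05%, while ARHGAP5 bars run from 2.99% to 8.49% in chimpanzee 5 and from 8.00% to 18.3% in human 5.

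Single cells could hold extreme AKAP6 counts. The richest cell of human 6 had 1375 AKAP6 UMIs, which were 84.4% of its UMIs of the shared genes, and the richest of human 4 and human 5 had 220 (87.0%) and 205 (77.4%). The richest 1% of cells held 3.20% to 8.12% of all AKAP6 UMIs of a library and 3.40% to 5.60% of all ARHGAP5 UMIs. Chimpanzee 4 had the highest value for AKAP6 and human 4 for ARHGAP5.

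Whether the neighbours rise and fall together over cells was asked next, with the correlation of their counts given the other gene UMIs of the cell. It was 0.019, 0.067, -0.018, 0.538, 0.191 and 0.081 in human 1 to 6, and -0.038, -0.089, 0.075, 0.044 and 0.155 in chimpanzee 1 to 5. Human 4, the library with the uneven depth and the most GAPDH, stood far above the rest, of which all but human 5 lay between -0.089 and 0.155. Given the other 5 shared genes in place of all other genes, human 4 stood at 0.143 and all 11 libraries ran from 0.057 to 0.332. The species means of 0.146 and 0.030 differed by 0.117 (exact permutation p = 0.299), and the difference was -0.021 given the 5 shared genes (p = 0.703). On log2(UMIs + 1) with no correction for depth it was 0.238 (exact permutation p = 0.00649), though chimpanzee 1 (0.518) lay above human 6 (0.507).

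Of the 3 genes per panel that correlated most with AKAP6 over cells, only PUM2, in panel 1, was also among those for ARHGAP5. In panel 1 AKAP6 correlated most with RHOB, a small GTPase of endosomes (median 0.40 over 7 libraries, range 0.15 to 0.62), PUM2, a translational repressor (0.30, range 0.06 to 0.39), and DCTD, a deaminase of pyrimidine nucleotides (0.10, range -0.19 to 0.23). In panel 2 it correlated most with ONECUT2, a homeobox factor of neurons (0.49 over 4 libraries, 0.29 to 0.61), PLCL2, a phospholipase C-like protein (0.32), and SCRT2, a neural zinc finger repressor (0.30). NRSN2, a neuronal vesicle membrane protein, came next at 0.30. Given the other shared genes in place of all other genes, NRSN2 (0.43) and PLXNC1 (0.32) came above PLCL2 (0.30) and SCRT2 (0.29). RHOB was positive with AKAP6 in all 7 libraries and highest in chimpanzee 1 (0.62) and chimpanzee 2 (0.53). ONECUT2 was highest in chimpanzee 4 (0.61) and chimpanzee 3 (0.54), so these 4 correlations were strongest where AKAP6 varied most. With NPAS3, its neighbour downstream, AKAP6 stood at -0.47 in chimpanzee 1 and -0.46 in chimpanzee 2, against 0.04 in chimpanzee 5 and 0.05 to 0.22 in the human panel 1 libraries. In panel 2 AKAP6 with NPAS3 stood at 0.10 in chimpanzee 3, 0.07 in chimpanzee 4, 0.50 in human 4 and 0.12 in human 5. With BAZ1A it stood at -0.40 in chimpanzee 1 and -0.15 in chimpanzee 2, and between -0.05 and 0.15 in the other panel 1 libraries.

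ARHGAP5 stood at the other end for RHOB and ONECUT2. In panel 1 it correlated most with PUM2 (median 0.27), BAZ1A (0.21) and LAPTM4A, a lysosomal membrane protein (0.18), and least with RHOB (-0.10, range -0.23 to 0.05). In panel 2 it correlated most with BAZ1A (0.41), NPAS3 (0.37) and PSMA6 (0.32), and least with ONECUT2 (-0.05, range -0.09 to 0.26). All 3 of its closest panel 2 genes are of the chromosome 14 stretch, as are 5 of the 21 genes of that panel with ARHGAP5 itself counted. TENM3 (0.29) and DCTD (0.28), of chromosome 4, followed closely. In panel 1 NPAS3 had rank 7 of 9 (0.13). AKAP6 ranked eighth among 20 genes for ARHGAP5 in panel 2 and eighth among 9 in panel 1. The panel 1 rank depended on the genes held fixed. Given the other shared genes in place of all other genes, the panel 1 median with AKAP6 was 0.17 in place of 0.02, against 0.23 with PUM2. Across the 11 libraries, the centred log2 share of ARHGAP5 was nearest to that of PSMA6 (root mean square difference 0.22) and DCTD (0.42), and that of AKAP6 to PSMA6 (0.54) and ARHGAP5 (0.56). The correlations are descriptions over cells that share a library and its depth, and carry no test.

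**Figure D4:**
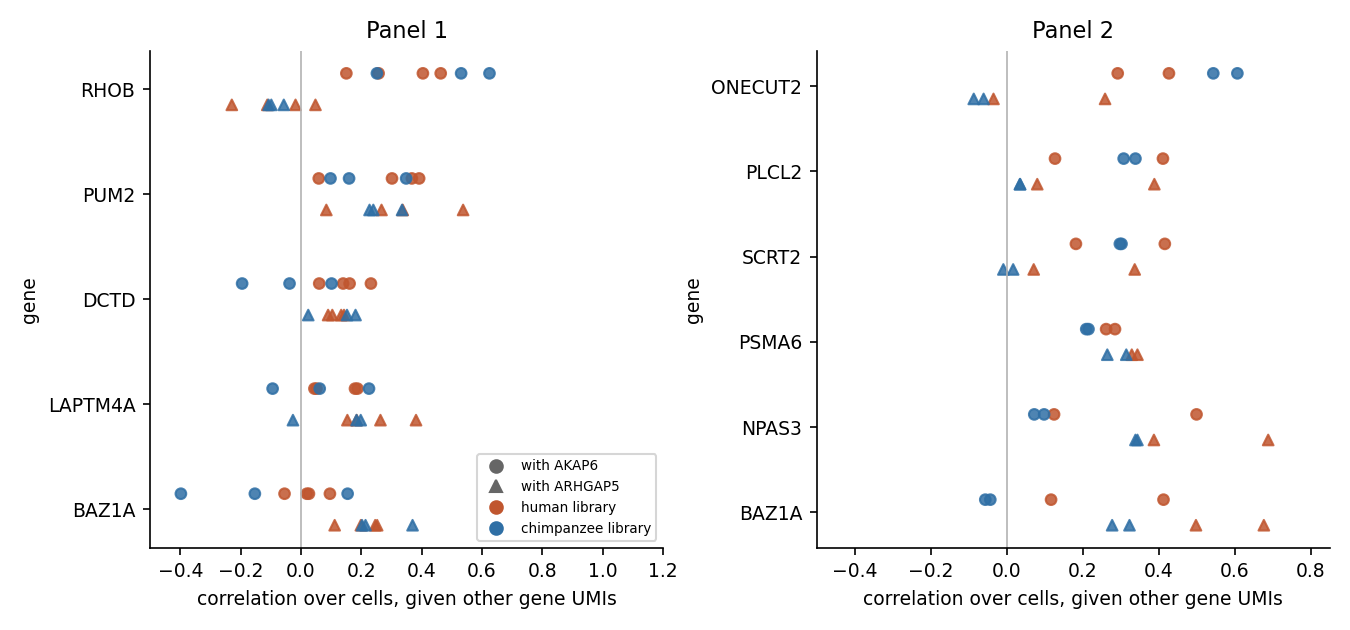
Correlation over cells of AKAP6 (circles) and ARHGAP5 (triangles) with the genes nearest to either, given the other gene UMIs of a cell; each point is 1 library, with panel 1 left and panel 2 right. RHOB and ONECUT2 lie to the right for AKAP6 and near or under 0 for ARHGAP5 (0.26 with ONECUT2 in human 4), and BAZ1A and NPAS3 lie further right for ARHGAP5 in panel 2.

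Whether any guide pool member moved the neighbours was asked with each guide barcode as its own class, since a map from barcode to targeted region was not used here. A cell was assigned to a barcode that had at least 5 UMIs and 70% of its guide UMIs, which held for 2506 human and 3175 chimpanzee cells. No barcode passed for either gene in either species. Of 44 pairs of a member and a barcode in human neurons 0 passed by edgeR's quasi-likelihood test with Benjamini-Hochberg adjustment and 0 by DESeq2, and 3 lay under an unadjusted 0.05 by edgeR. All 154 pairs of the fit had 0% called and 7.79% under the unadjusted level. Of 48 member pairs in chimpanzee neurons 0 passed by either tool, with 5 under the unadjusted level, against 0% and 8.33% of all 168 pairs.

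In human neurons the log2 ratio was under 0.2 in size for 20 of 22 barcodes (AKAP6) and 22 of 22 (ARHGAP5). In chimpanzee neurons it was so for 20 of 24 and 24 of 24. The reference was other cells with guides, so effects against cells without guides were not measured. In human neurons the log2 ratio to other assigned cells ran from -0.21 to 0.27 over 22 barcodes for AKAP6 and from -0.19 to 0.11 for ARHGAP5, with median SEs of 0.06 and 0.07. In chimpanzee neurons it ran from -0.29 to 0.58 over 24 barcodes for AKAP6 and from -0.18 to 0.19 for ARHGAP5, with median SEs of 0.10 and 0.09. The smallest p in human neurons came for AKAP6 with SplintRbar9 (-0.11), Brainbar4 (-0.14) and Brainbar1 (-0.21), and for ARHGAP5 with SplintRbar12 (-0.10), SplintRbar1 (-0.19) and SplintRbar10 (0.11). In chimpanzee neurons it came for AKAP6 with SplintRbar22 (-0.18, lower in 4 of 4 libraries), Brainbar3 (0.58, from 27 cells) and SplintRbar11 (0.12), and for ARHGAP5 with SplintRbar27 (0.09), SplintRbar11 (-0.10) and SplintRbar18 (0.09).

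One interaction of species and barcode passed, of 40 member pairs and 140 in the fit (0.714% called). Cells with SplintRbar12 had an AKAP6 share of 34.1%, 31.9%, 32.6%, 26.6% and 26.2% in human 1 to 5, against 34.1%, 33.0%, 33.2%, 26.2% and 25.5% in cells with other barcodes. In chimpanzee 1 to 4 they had 27.4%, 28.4%, 15.2% and 13.9%, against 24.7%, 28.98%, 10.8% and 10.9%. The share was higher with the barcode in 3 of 4 chimpanzee libraries, from 17 to 92 cells each, and 3 of 5 human libraries had it higher and 2 lower. The log2 ratio was -0.02 ± 0.03 in human and 0.26 ± 0.10 (SE) in chimpanzee neurons, and the difference of human minus chimpanzee was -0.36 ± 0.09 (adjusted p = 0.0366 by edgeR). It did not pass by DESeq2, under either other rule of assignment, or without any 1 of chimpanzee 1 to 4 or human 1 to 4, and was 0.05 when cells needed only 2 UMIs and 50%. For barcodes found in 1 library only it was -0.43 (adjusted p = 0.0107).

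The next interactions for AKAP6 were with SplintRbar20 (0.23) and SplintRbar10 (0.25), and those for ARHGAP5 with SplintRbar1 (-0.35), SplintRbar12 (-0.23) and Brainbar4 (0.15), all with an adjusted p of 0.703 by edgeR. Shares also differed between cells with few and many guide UMIs in some libraries, in opposite directions. From the cells with the fewest guide UMIs to those with the most, in 4 groups of equal number, AKAP6 went from 30.6% to 23.4% of the shared-gene UMIs in human 5 and from 20.5% to 25.0% in chimpanzee 2. In the other libraries the ends differed by 0.10 to 3.36 points for AKAP6. ARHGAP5 moved by at most 1.15 points in any library. Gene depth differed too, from a median of 60 to 88.5 shared-gene UMIs in human 5 and from 102 to 174 in chimpanzee 2, and its part was not tested.

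**Figure D5:**
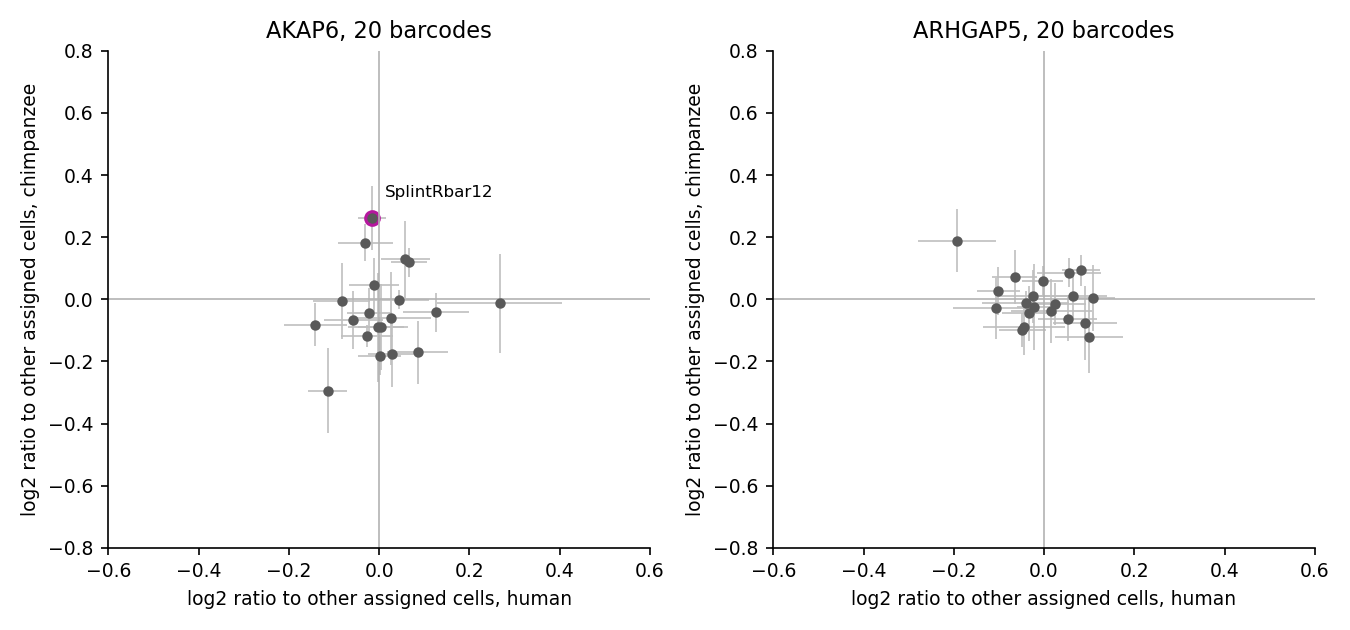
Log2 ratio of the AKAP6 (left) and ARHGAP5 (right) share in cells with a guide barcode to other assigned cells, human against chimpanzee, for the 20 barcodes fitted in both species; bars are 1 SE. Values scatter around 0 in both species, and SplintRbar12, named for AKAP6, lies at -0.02 in human and 0.26 in chimpanzee neurons.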

How the data were processed

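HyPR-seq was run on neurons of both species under CRISPR interference. Each deposited table holds UMI counts with cells in rows and genes and guide barcodes in columns, per the file headers. Per the labels' protocols, the authors fixed the cells, hybridised and ligated pooled probes and captured them in droplets. Tools named by the submitters' processing notes are Bowtie, SAMtools, UMI-tools and fastp, with the build hg38, and with roles, versions and cell selection not given in the sources used here. The probes' sequences were not analysed.

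Counts were summed per library and fitted with edgeR 4.0.16 (quasi-likelihood, legacy method, common dispersion, TMM factors), with Benjamini-Hochberg adjustment over 24 genes; the genes on both panels were fitted over 11 libraries. The common dispersion ties each gene's SE to the spread of the whole fit. Values per library were compared by exact permutation tests over 462 splits. Guide classes needed 5 cells in at least 3 libraries, with the library as a block. DESeq2 1.42.0 was an alternative. Methods were tested on simulated data. No doublet caller was run. The members, gene lists and tests were chosen with earlier results of these data known; 1 of the lists is not reported here. Guide barcodes named are those that passed, otherwise the 3 of smallest p per gene and fit, plus both genes' values for the barcode that passed; correlated genes named are the top 3 per panel, and NRSN2 was added after its value was seen. Screen replicate numbers come from the labels and mark a shared screen; the fits without that block are the main ones. Libraries of 1 species and panel differed by more than sampling noise (at least 185 chi-square units for each degree of freedom), and each was counted as 1 replicate. That spread does not show that libraries are independent. Human 4 and 5 shared 1060 cell barcodes and chimpanzee 4 and 5 shared 1436, and the tests over libraries do not allow for this. Promoter windows and gene positions are RefSeq's on GRCh38.p14.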

Additional observations from a re-analysis of the deposited data

Results flagged for a closer look

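The interaction of species and SplintRbar12 for AKAP6 had a log2 difference of -0.36 (human minus chimpanzee). It was the only 1 of 40 interactions tested for AKAP6 and ARHGAP5 that passed by edgeR. In neither species alone did SplintRbar12 pass for AKAP6 (adjusted p = 0.928 in human and 0.438 in chimpanzee neurons by edgeR). The interaction passed under 4 of the 18 alternatives tried (barcodes found in 1 library only, and without human 5, human 6 or chimpanzee 5, the last 2 of which hold no cells of that class), with adjusted p from 0.00549 to 0.974 over all of them.

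The species ratio of AKAP6 was larger in panel 2 than in panel 1 by 0.63 on the log2 scale by edgeR with TMM factors, and by 0.29 with DESeq2, where it did not pass. Panel 2 holds 2 libraries per species.

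By Dixon's test, which sets the gap of the highest or lowest library to its nearest neighbour against the range of the group, no library passed the 95% critical value in any of 20 sets of values (10 measures of the pair in 2 species). Chance would flag about 1 in 20. Human 4 fell just short of the critical value for the correlation of the pair, at 0.538 against 0.191 in human 5, the next highest human library.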

How the results depend on the processing

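Over 15 results, 259 of 307 values under alternatives kept their direction and their side of 0.05 (or their count). The side was judged by adjusted p for the edgeR and DESeq2 fits and by unadjusted p for the exact permutation tests. Analysis with a screen replicate block, which pairs libraries by the screen number of the labels, gave 0.96 for AKAP6 and 0.74 for ARHGAP5 as species ratios and changed no call. By design panel 2 alone, screen replicate 1 alone and screen replicate 2 alone hold too few libraries for an exact p under 0.05. There the detection differences were 21.6, 6.22 and 15.1 points for AKAP6 and 9.98, 13.97 and 12.2 for ARHGAP5, and the AKAP6 spread differed by -0.484, -0.210 and -0.330. The ARHGAP5 species ratio against all genes of panel 2 was 0.23. Without thinning, detection differed by 1.04 points (AKAP6, p = 0.216) and 0.154 points (ARHGAP5, p = 0.929, both by exact permutation). The AKAP6 spread was -0.215 with cells weighted by pairs of UMIs and -0.228 as a share of all gene UMIs. The cause of these last changes was not tested.

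Differences that did not pass changed sign in places. The log2 ratio of the pair was -0.0166 in panel 1 alone and -0.0323 in screen replicate 1 alone, and ARHGAP5 UMIs per cell differed by -0.0672 in panel 2 alone. The ARHGAP5 spread differed by 0.00550 with weighted cells, 0.0444 as a share of all gene UMIs and 0.00155 in screen replicate 1 alone. The correlation of the pair differed by -0.199 for shares beyond counting noise, -0.0212 given the other 5 shared genes, and 0.238, past the threshold, with no correction for depth. The species-by-panel term was 0.29 for AKAP6 and -0.48 for ARHGAP5 with both RLE factors and DESeq2.

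In the guide fits, 1 member pair passed in chimpanzee neurons with assignment at 2 UMIs and 50% (AKAP6 with SplintRbar1), with the newer default of the quasi-likelihood method (AKAP6 with Brainbar3), without chimpanzee 3 (AKAP6 with SplintRbar13) and without chimpanzee 4 (AKAP6 with Brainbar5), a different barcode each time. Of the interactions 0 passed with assignment at 10 UMIs and 80%, class totals without factors, DESeq2, the newer default, or a spread that follows abundance. With assignment at 2 UMIs and 50% the count stayed at 1, but with another barcode: AKAP6 with SplintRbar1 (-0.49, adjusted p = 0.0305 by edgeR) in place of SplintRbar12. Counting settings that left out 1 library, the interactions passed were 0 to 1, the chimpanzee pairs 0 to 1 and the human pairs 0. With assignment at 2 UMIs and 50%, the interaction was 0.0481 for AKAP6 with SplintRbar12 and 0.10 for ARHGAP5 with SplintRbar12, and the chimpanzee ratio of AKAP6 with SplintRbar22 was 0.0196. The human ratio of AKAP6 with SplintRbar12 was 0.0035 there and 0.0020 at 10 UMIs and 80%, and the chimpanzee ratio of ARHGAP5 with SplintRbar12 was -0.0184 without factors.

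Leaving out 1 library at a time, the AKAP6 species ratio ran from 0.84 to 1.15 and that of ARHGAP5 from 0.63 to 0.78. Both kept their calls by edgeR's adjusted p. Detection differences ran from 8.48 to 14.1 and 11.2 to 14.1 points, and the AKAP6 spread from -0.359 to -0.199. These stayed under 0.05 by exact permutation p (at most 0.0238 for the spread), which was not adjusted over the 8 tests here. The ARHGAP5 spread ran from -0.0123 to 0.000697, the AKAP6 species-by-panel term from 0.51 to 0.74, the interaction of ARHGAP5 with SplintRbar12 from -0.258 to 0.106, the human ratio of AKAP6 with SplintRbar12 from -0.0355 to 0.00414 and the chimpanzee ratio of ARHGAP5 with SplintRbar12 from -0.0504 to 0.0860. The depth limits human 4 most, where 32.0% of cells had too few UMIs for the measures per cell, and guide classes of 17 to 92 cells limit the interaction.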
